A study of Homo sapiens with 6 samples.

Results

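The chromosome 19 zinc finger genes were defined here as the protein-coding genes on chromosome 19 (GENCODE release 29, GRCh38) whose symbol is ZNF followed by a number and, in some, a letter. The rule used no measured value and found 246 genes among the 58288 gene identifiers of the deposited count table. A filter on low counts kept 210 of them, and 36 were not tested, 15 of which had no count in any library. ZNF100 had the most counts of the genes not tested, 42 over the 6 libraries.

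Most of these genes encode a protein with an N-terminal KRAB box and a row of C2H2 zinc fingers, each finger a small fold around a zinc ion that contacts a few bases of DNA. The KRAB box recruits the scaffold protein TRIM28 (KAP1), which brings the histone H3K9 methyltransferase SETDB1, HP1 proteins and the NuRD complex, and the best known targets of this repression are transposable elements and imprinted loci. The genes arose by repeated duplication and lie in clusters along chromosome 19, which are themselves covered by H3K9 methylation over their finger exons.

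T24 is an established bladder cancer cell line. Its cells were transfected with a control siRNA (NC) or with 1 of 2 siRNAs of different sequence, si-circ235-1 and si-circ235-2, both directed at the looping site of the circular RNA circ_0000235. There were 2 libraries per condition, labelled as biological replicates, and all cells were transfected and of 1 line, so an untransfected state was not analysed here. RNA was enriched for poly(A), which a circular RNA lacks, so the counts do not measure the knockdown, and the sequencing kept no strand information. By qRT-PCR the authors found a higher knockdown efficiency for the siRNA named first above. The siRNA with more calls against NC below, si-circ235-2, was thus the less efficient of the pair in that assay. Whether the number of calls followed the degree of knockdown was not tested.

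The 6 libraries held 15373992 to 19912893 counts, of which 0.198% to 0.291% fell on the 246 genes and 4.58% to 5.93% on mitochondrial genes. The keratins KRT7, KRT8 and KRT18 stood at 619 to 2307 CPM (counts scaled to library size) in every library and VIM and CD44 at 499 to 1499 CPM, while KRT19, KRT5, CDH1 and UPK3A reached at most 0.287 CPM. EPCAM stood at 1.28 to 2.93 CPM and GATA3 and UPK2 at 0.059 to 1.12 CPM. PPARG stood at 23.2 and 22.6 CPM in NC and at 39.5 to 51.1 CPM in the siRNA libraries. PTPRC, ALB and MYH11, markers of leukocytes, liver and smooth muscle, had no count in any library. The endothelial marker PECAM1 reached at most 0.394 CPM, and the fibroblast marker COL1A1 stood at 0.489 to 1.47 CPM. CPM values below were scaled by TMM factors, which correct for differences in RNA composition between libraries, and a gene was called when the Benjamini-Hochberg adjusted p of edgeR's quasi-likelihood test over all 14415 genes tested was under 0.05.

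A script looked for the KRAB A box in the translated coding sequence of each gene by a short pattern and found it in 207 of the 246 genes, 176 of them tested. In the other 39, 34 of them tested, the pattern was not found. This does not show that these genes lack a KRAB box, since a short pattern can miss one and other isoforms were not searched. The coding sequences of the set share short words. The 18-base word TCATACTGGAGAGAAACC, which codes for the linker between 2 fingers, was found in 97 of the 246 genes (39.4%), in 43.5% of those with the KRAB pattern and in 17.9% of those without. The word was picked as the one of its length present in the most of the 246 genes, so a higher share in the set was favoured in advance. It occurred in 16.7% of the zinc finger genes of other chromosomes and in 0.115% of the longest transcripts of the other genes tested, and ZNF208 held 18 copies. The word is shown in capitals within 30 bases of the coding strand of 3 genes of 1 cluster, at coding positions 1455 to 1484 of ZNF616, 1368 to 1397 of ZNF880 and 1086 to 1115 of ZNF611, because such repeats limit how reads can be told apart:
ZNF616: aatTCATACTGGAGAGAAACCttacaaatg
ZNF880: attTCATACTGGAGAGAAACCttacagatg
ZNF611: aatTCATACTGGAGAGAAACCttacaaatg
Of the 210 genes tested, 67 shared at least 20% of their longest transcript with another gene, by 50-base words or by overlapping exons, and counts of these are uncertain because reads of near-identical copies or of overlapping genes can be assigned to either.

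In NC the genes were expressed at low levels. The median level over the 210 genes tested was 6.69 CPM, against 17.7 CPM over all genes tested, and per kilobase of longest transcript it was 1.48 against 4.57 CPM per kb. Genes without the KRAB pattern stood higher, with a median of 5.71 CPM per kb over 34 genes, than genes with it, with a median of 1.30 CPM per kb over 176 genes. The 5 highest levels per length in NC were those of ZNF580 (56.9 CPM per kb), ZNF787 (45.8), ZNF581 (41.4), ZNF524 (36.1) and ZNF579 (27.9). All 5 lie in a stretch of chromosome 19 in which every gene of the set tested lacked the pattern, described further on.

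Under si-circ235-2 the chromosome 19 zinc finger genes split by this feature. Of the 176 genes with the KRAB pattern, 30 rose and 0 fell relative to NC, the median log2 fold change being 0.18. Of the 34 genes without it, 4 rose and 17 fell, and the median was -0.80. Over the 210 genes together, 34 were called higher, against 15.7% of all genes tested, and 17 were called lower, against 15.7% of all genes tested. The share called higher among the genes with the KRAB pattern, 17.05%, was near that background, whereas the 0% called lower (0 also by DESeq2, and 4 at an unadjusted p under 0.05 by edgeR) and the 50% called lower among the genes without the pattern were not. The count of 0 depended on 1 library: without si-circ235-2 replicate 2, 19 genes with the pattern were called higher and 9 lower (5.11%, against 11.9% of all genes tested), and the median over the 210 genes was -0.02. With all libraries the median over the 210 genes was 0.10, with 0.00 over all genes tested. In RNA from whole cultures, fewer cells expressing a gene and less RNA per cell cannot be told apart.

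Of 90 zinc finger genes of other chromosomes with the KRAB pattern 15 rose and 4 fell (median 0.14), and of 129 without it 22 rose and 12 fell (median 0.21), the difference between the chromosomes being a description with no test. The other protein-coding genes of chromosome 19 were lower as a group, with 31 of 747 higher (4.15%) and 326 lower (43.6%), and a median of -0.61. Their share called lower thus stood near the 50% of the 34 genes of the set without the pattern. Their median GC content was 60.2% and their median length 2724 bases.

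The same split was seen in the summed counts, which include the genes not tested. Summed levels of the genes with the KRAB pattern were 1250.5 and 1324 CPM in the 2 NC libraries, 1273 and 1412 CPM under si-circ235-1, and 1551 and 1726 CPM under si-circ235-2. Both si-circ235-2 libraries stood above the other 4. For the genes without the pattern the sums were 1206 and 938 CPM in NC, 884 and 950 CPM under si-circ235-1, and 697 and 714 CPM under si-circ235-2. Both si-circ235-2 libraries stood below the other 4 there, and NC overlapped si-circ235-1. Without TMM factors these sums were 1071 and 968, 810 and 855, and 769 and 850 CPM, so that both NC libraries stood above the other 4 and the siRNA libraries overlapped, whereas for the genes with the pattern the si-circ235-2 libraries, at 1709 and 2056 CPM, were still the highest. With 2 libraries in each condition an exact permutation test cannot pass the threshold, so no test is given for these sums.

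**Figure D1:**
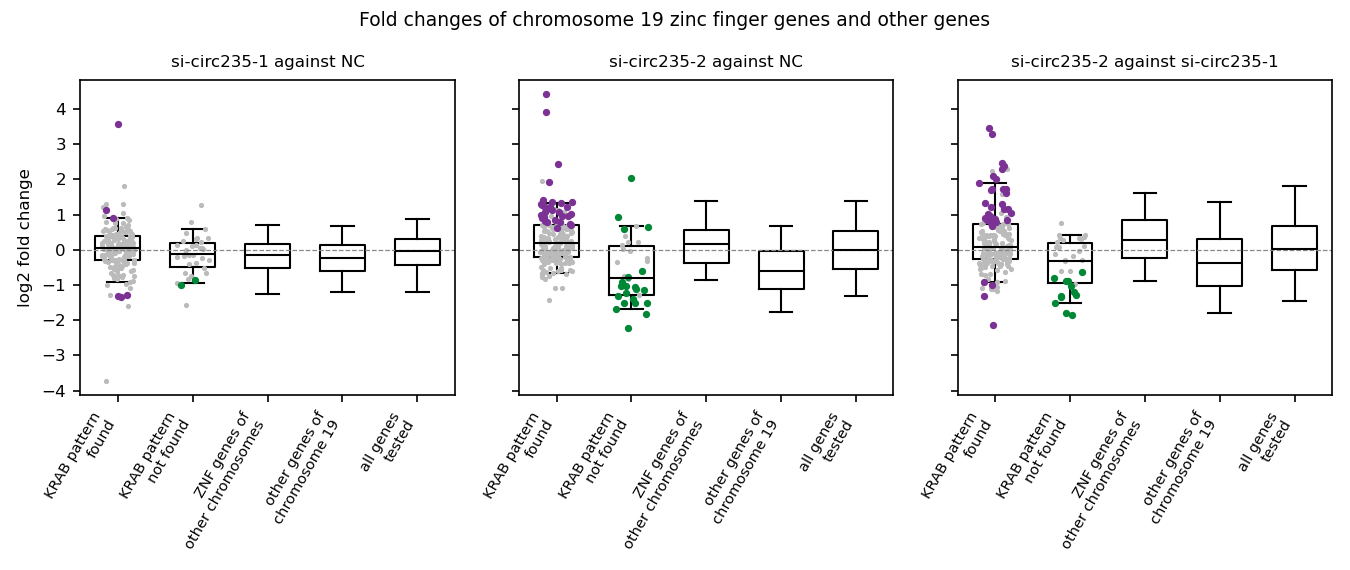
Log2 fold change of the genes tested in 3 comparisons. Each point is a chromosome 19 zinc finger gene, coloured where called and grey where not, with the 176 genes in which the KRAB pattern was found and the 34 in which it was not, and boxes show the median and quartiles with whiskers from the 5th to the 95th percentile, also for 3 other sets of genes. In the comparison of si-circ235-2 with NC the 17 called falls are all in the second group, whose median is -0.80, and the highest point is ZNF460, whose fitted value rests on 3 counts in NC.

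Among the genes that rose under si-circ235-2 and had more than 3 counts in NC, ZNF699 rose most. ZNF699 (ENSG00000196110.7, chr19:9294275-9309838, minus strand, 14 fingers found in the coding sequence) is the human counterpart of a Drosophila gene linked to ethanol tolerance. Its level was 0.459 and 0.183 CPM in NC, 0.350 and 0.614 CPM under si-circ235-1, and 4.84 and 4.97 CPM under si-circ235-2. The 2 si-circ235-2 libraries lay close together and far above the other 4, which overlapped. The log2 fold change of si-circ235-2 against NC was 3.92 (SE 0.51, adjusted p = 0.00179), and against si-circ235-1 it was 3.30 (SE 0.48, adjusted p = 0.000914).

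ZNF155 (chr19:43967862-43998325, plus strand), a KRAB zinc finger gene of the cluster around ZNF224, stood at 0.459 and 1.28 CPM in NC, 0.350 and 0.502 CPM under si-circ235-1, and 4.43 and 5.16 CPM under si-circ235-2. Again only the si-circ235-2 libraries were apart, with a log2 fold change of 2.44 (SE 0.47, adjusted p = 0.00475) against NC, but 61.9% of its longest transcript is shared with other genes. ZNF611, whose protein has been reported to bind SVA elements and which shares 37.2% of its transcript, measured 3.48 and 4.77 CPM in NC, 2.10 and 4.24 CPM under si-circ235-1, and 13.4 and 17.9 CPM under si-circ235-2 (log2 fold change 1.92 against NC, SE 0.35, adjusted p = 0.00381). ZNF304, a KRAB protein reported to recruit silencing factors to the INK4-ARF locus, measured 5.58 and 8.19 CPM in NC, 5.88 and 2.96 CPM under si-circ235-1, and 19.8 and 15.5 CPM under si-circ235-2 (log2 fold change 1.36 against NC, SE 0.34, adjusted p = 0.0129), with 6.05% of its transcript shared. In all 3 genes the si-circ235-2 libraries were the highest of the 6.

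ZNF429 was at low levels throughout, with 0.722 and 0.978 CPM in NC, 0.420 and 0.447 CPM under si-circ235-1, and 2.01 and 2.58 CPM under si-circ235-2 (log2 fold change 1.43 against NC, SE 0.47, adjusted p = 0.0411), and DESeq2 did not call it. ZNF417, a repressor of HERV-K elements with its near copy ZNF587, shared 66.0% of its transcript and rose by a log2 fold change of 1.37 (SE 0.38, adjusted p = 0.0198), from 3.08 and 2.14 CPM in NC to 5.25 and 8.22 CPM. ZNF587 rose as well, with a log2 fold change of 1.24 (adjusted p = 0.00498). Reads of these copies cannot be told apart with certainty, so the 2 calls are not independent.

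The genes without the KRAB pattern that rose were ZNF714, ZNF134, ZNF544 and ZNF473, in which a KRAB box missed by the pattern was not excluded. ZNF714 measured 2.62 and 3.73 CPM in NC, 6.51 and 8.88 CPM under si-circ235-1, and 8.91 and 17.2 CPM under si-circ235-2, all 4 siRNA libraries above both NC libraries (log2 fold change of si-circ235-2 against NC 2.04, SE 0.36, adjusted p = 0.00368). ZNF473, which acts in histone pre-mRNA processing with the U7 snRNP, moved least of the 4, from 24.5 and 25.9 CPM in NC to 37.9 and 37.3 CPM (log2 fold change 0.58, SE 0.20, adjusted p = 0.0450).

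The 17 genes that fell under si-circ235-2 were ZNF296, ZNF358, ZNF414, ZNF428, ZNF444, ZNF524, ZNF574, ZNF575, ZNF579, ZNF580, ZNF581, ZNF628, ZNF653, ZNF784, ZNF787, ZNF837 and ZNF865. ZNF580 (ENSG00000213015.8, chr19:55635016-55643469, plus strand), a small protein with 3 fingers reported in endothelial cell migration, measured 118 and 76.6 CPM in NC, 53.4 and 53.0 CPM under si-circ235-1, and 37.2 and 31.1 CPM under si-circ235-2. Both siRNA conditions were below NC without overlap, and si-circ235-2 was below si-circ235-1. The log2 fold change against NC was -1.51 for si-circ235-2 (SE 0.23, adjusted p = 0.00241) and -0.87 for si-circ235-1 (SE 0.22, adjusted p = 0.0479).

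The largest fall was that of ZNF358, at 32.5 and 16.7 CPM in NC, 11.5 and 14.0 CPM under si-circ235-1, and 5.78 and 4.78 CPM under si-circ235-2 (log2 fold change of si-circ235-2 against NC -2.22, SE 0.33, adjusted p = 0.00228), with 37.1% of its transcript shared with overlapping genes. ZNF428, in whose coding sequence 1 finger was found, measured 47.6 and 24.9 CPM in NC, 39.5 and 34.0 CPM under si-circ235-1, and 11.8 and 8.70 CPM under si-circ235-2 (log2 fold change -1.82, SE 0.31, adjusted p = 0.00310). ZNF444, a SCAN-domain zinc finger protein that binds the promoter of the endothelial scavenger receptor SCARF1, measured 92.4 and 55.2 CPM in NC, 57.1 and 57.3 CPM under si-circ235-1, and 26.6 and 19.5 CPM under si-circ235-2 (log2 fold change -1.68, SE 0.26, adjusted p = 0.00259). In these 3 genes the si-circ235-2 libraries were the lowest of the 6, and the 2 NC libraries differed from each other, with replicate 1 the higher.

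ZNF414 fell by 1.499 on the log2 scale (SE 0.27, adjusted p = 0.00381) and ZNF575 by 1.51 (SE 0.38, adjusted p = 0.0133). ZNF524 and ZNF653, the latter known as a corepressor of the nuclear receptor SF-1, had log2 fold changes of -1.40 (SE 0.31, adjusted p = 0.00843) and -1.31 (SE 0.34, adjusted p = 0.0149). The other genes with the highest level per length in NC had changes of about the same size, -1.04 for ZNF787 and for ZNF581 and -1.02 for ZNF579. None of these 3 remained called after length and GC trends were removed, and ZNF787 then stood at 0.0021.

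**Figure D2:**
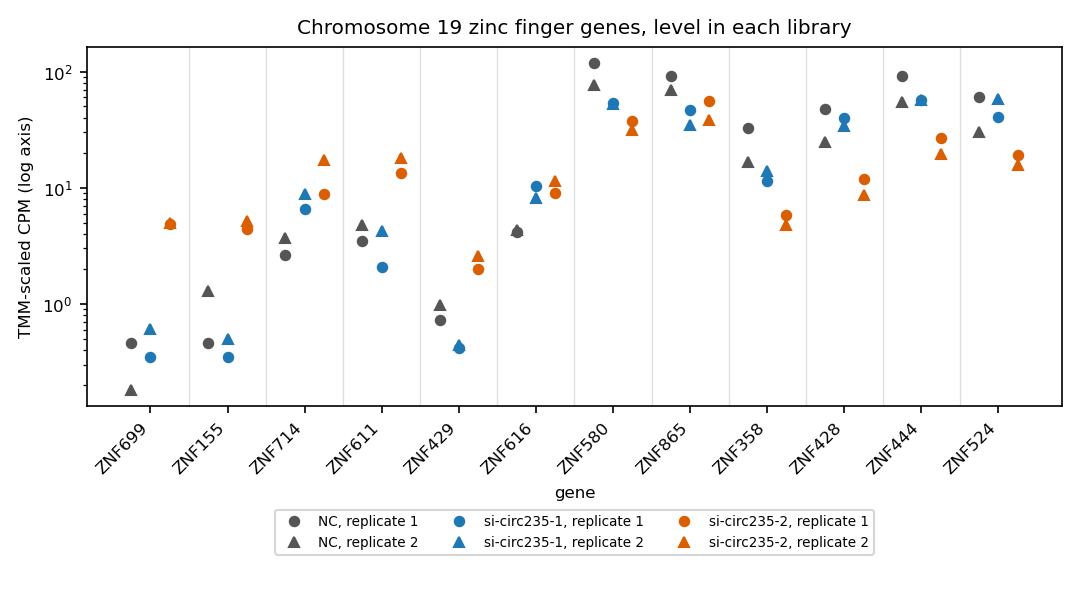
TMM-scaled CPM (log axis) of 12 chromosome 19 zinc finger genes in each of the 6 libraries, with circles for replicate 1 and triangles for replicate 2. For ZNF699 both si-circ235-2 libraries are at 4.84 and 4.97 CPM and the other 4 below 1, and for ZNF580, ZNF358, ZNF428 and ZNF444 the si-circ235-2 libraries are the lowest.

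One library decided most of these calls, in the set and over all genes. With NC replicate 1 left out, the median log2 fold change over the 210 genes was 0.11, with 0.004 over all genes tested. It was 0.18 for the genes with the KRAB pattern and -0.63 for those without. With all libraries these 2 medians were 0.18 and -0.80. Without NC replicate 1, 3 genes were called higher (ZNF460, ZNF585B and ZNF699) and 4 lower (ZNF358, ZNF428, ZNF444 and ZNF580) in place of 34 and 17, all 7 of which were also called with all libraries, and the lone NC library was then assumed to vary like the other conditions. Of all genes tested 2.72% were then called higher and 1.99% lower, and of the 210 genes 1.43% and 1.90%. Without NC replicate 2 most of the calls in the set held, and the median over the 210 genes was 0.14, with 0.03 over all genes tested.

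Transcript length and base composition moved with the split. The median length of the longest transcript was 4045 bases over the 210 genes and 3354 bases over all genes tested. Genes with the KRAB pattern had a median of 4131 bases and 41.8% GC, and those without it 3689 bases and 59.2% GC. Over all genes, the log2 level of a library relative to the mean of the 6 changed with each doubling of length by -0.158 and -0.041 in the NC libraries, -0.071 and -0.091 under si-circ235-1, and 0.106 and 0.255 under si-circ235-2, so on average over all genes longer transcripts stood higher under si-circ235-2. With each added 10% of GC that level changed by 0.206 and 0.029 in the NC libraries. The values were 0.041 and -0.130 under si-circ235-1, and 0.058 and -0.204 under si-circ235-2. On GC content the conditions overlapped, and the extremes were NC replicate 1 and si-circ235-2 replicate 2.

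Across the 210 genes the Spearman correlation of the log2 fold change of si-circ235-2 against NC with length was 0.21, and across 14386 genes tested it was 0.44. These are correlations across genes that share the same 4 libraries, given as a description. Split at 3227 and 4690 bases, the short, middle and long genes, 70 each, had 5, 11 and 18 genes called higher and 13, 3 and 1 called lower. Among all genes of the same length ranges, 4.90%, 16.2% and 32.9% were called higher and 25.6%, 10.4% and 3.75% called lower. Their medians were -0.07, 0.14 and 0.21, against -0.36, 0.14 and 0.43 over all genes of those lengths. Over these ranges the chromosome 19 zinc finger genes together followed the order of all genes, with a smaller range. In 8 finer bins of length the genes with the KRAB pattern, absent from the shortest bin, did not climb steadily. From short to long their medians were -0.12, 0.09, 0.27, -0.12, 0.49, 0.05 and 0.53. Over the same bins all genes climbed from -0.48 to 0.54.

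**Figure D3:**
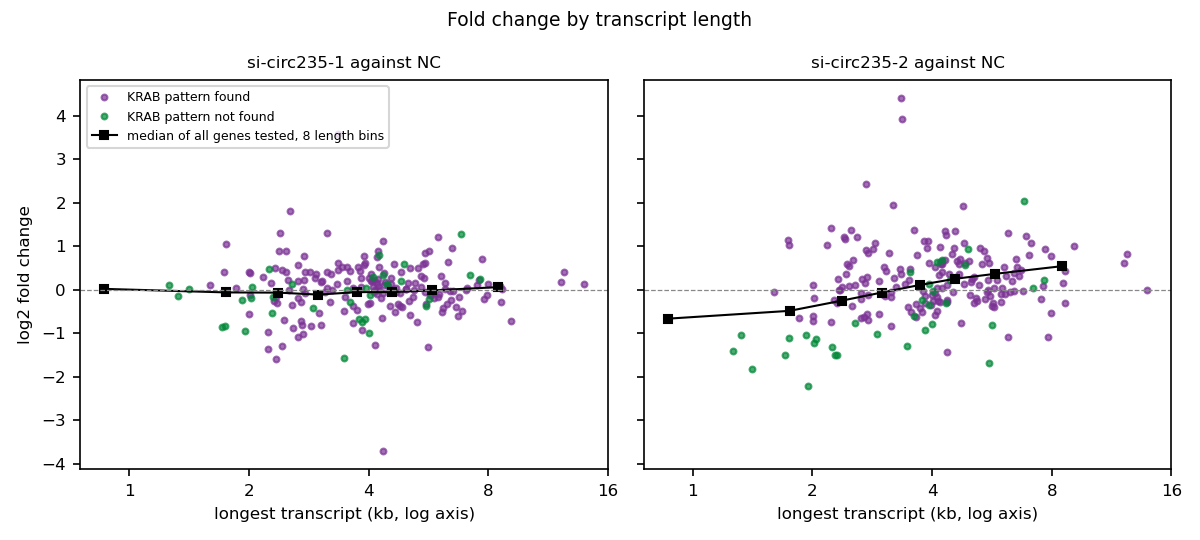
Log2 fold change against the length of the longest transcript (log axis, kb) for the 210 chromosome 19 zinc finger genes tested, by whether the KRAB pattern was found, with squares and a line for the median of all genes tested in 8 bins of length. Under si-circ235-2 the line climbs from -0.66 in the shortest bin to 0.54 in the longest, and under si-circ235-1 it stays between -0.11 and 0.06.

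All 17 genes that fell had at least 55% GC, a bound chosen after the values were seen. Of the 20 genes without the KRAB pattern above it, 17 fell and the median log2 fold change was -1.18. The 14 genes without the pattern below 55% GC included the 4 that rose, and their median was 0.22. Among all 4222 genes tested with at least 55% GC, 31.1% fell and 6.61% rose, with a median of -0.41. Where such genes were also in the short range, 41.5% of 2538 genes fell, and 13 of the 14 genes of the set there fell, all 13 without the pattern, with a median over the 14 of -1.26 against -0.68. In the middle and long ranges 15.4% of 1684 such genes fell, and 4 of the 8 genes of the set did. The 2 genes with the KRAB pattern and at least 55% GC, the neighbours ZNF324B and ZNF324, were not called, with log2 fold changes of -0.10 and -0.37. Zinc finger genes of other chromosomes without the pattern and with at least 55% GC numbered 37, of which 7 fell and 2 rose, with a median of -0.12.

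After a smooth trend over length was removed from each library, 24 genes with the KRAB pattern were called higher and 3 lower under si-circ235-2, and 2 without it were called higher and 17 lower. Over all genes tested 11.5% were called higher and 13.5% lower in that fit, against 13.6% and 1.70% of the genes with the pattern. The medians were then 0.08 and -0.71 for the genes with and without it. After trends over length and GC content were removed together, the genes with the pattern had a median of 0.00 with 15 called higher and 7 lower, and those without it had a median of -0.39 with 1 called higher and 8 lower. The share called higher among the genes with the pattern, 8.52%, was then below the 11.2% of all genes tested, their share called lower was 3.98%, and that of the genes without it was 23.5%, where 14.7% of all genes tested were called lower. Of the 34 single rises 15, and of the 17 single falls 6, remained called, among them ZNF699, ZNF460, ZNF155, ZNF714, ZNF611 and ZNF616, and ZNF358, ZNF414, ZNF428, ZNF444, ZNF574 and ZNF580. The part of length and of base composition in the split beyond these values was not tested.

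Among genes of like length and composition the set did not stand out in its rises. Of its 102 genes in the middle or long range with at most 44.1% GC, 16.7% rose, and of the 3038 other genes in those ranges 21.8% rose. The medians were 0.12 and 0.24.

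The 246 genes lie in 9 position clusters of 5 or more, with 11 genes outside them. The clusters at chr19:7069444-9793180 and chr19:55476332-58481230 held most of the calls under si-circ235-2, though the second also held the most genes tested of any cluster. In the first, 6 of 13 genes tested rose (ZNF317, ZNF426, ZNF558, ZNF561, ZNF562 and ZNF699) and 2 fell (ZNF358 and ZNF414), while 1 of its 30 other protein-coding genes rose and 16 fell. In the second, 15 of 50 rose and 10 fell, with 1 of 18 other genes rising and 5 falling. The large cluster at chr19:19668796-24129961, rich in copies of the linker word, had 2 rises in 29 genes tested, and the one at chr19:11483427-12640098 had 1 fall, that of ZNF653, in 17. In the cluster at chr19:51571298-53580269, 5 of 36 rose (ZNF347, ZNF528, ZNF611, ZNF616 and ZNF841). That share, 13.9%, was near the 15.7% called higher over all genes tested, where 15.7% were also called lower. The shares called higher and lower were 46.2% and 15.4% in the cluster at chr19:7069444-9793180. They were 30% and 20% in the one at chr19:55476332-58481230.

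At the start of the last cluster, 9 tested neighbours in a row fell under si-circ235-2, ZNF628, ZNF579, ZNF524, ZNF865, ZNF784, ZNF580, ZNF581, ZNF787 and ZNF444 (chr19:55476332-56160893). Their log2 fold changes ran from -1.68 to -0.78, and the KRAB pattern was found in none of the 9. Of the 9 genes 2, ZNF580 and ZNF444, remained called without NC replicate 1, and the same 2 after length and GC trends were removed, while all 9 remained called after the length trend alone was removed and with DESeq2. Runs of 3 rises were seen at chr19:57191500-57293569 (ZNF264, ZNF805 and ZNF460) and at chr19:57614233-57717301 (ZNF134, ZNF211 and ZNF551) in the same cluster, and at chr19:8806170-9309838 (ZNF558, ZNF317 and ZNF699). DESeq2 did not call ZNF805, so the first of these runs was not seen with it, and after length and GC trends were removed none of these 3 runs was whole. ZNF581 overlaps ZNF580 over 19.2% of its transcript, so their counts are not separate.

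**Figure D4:**
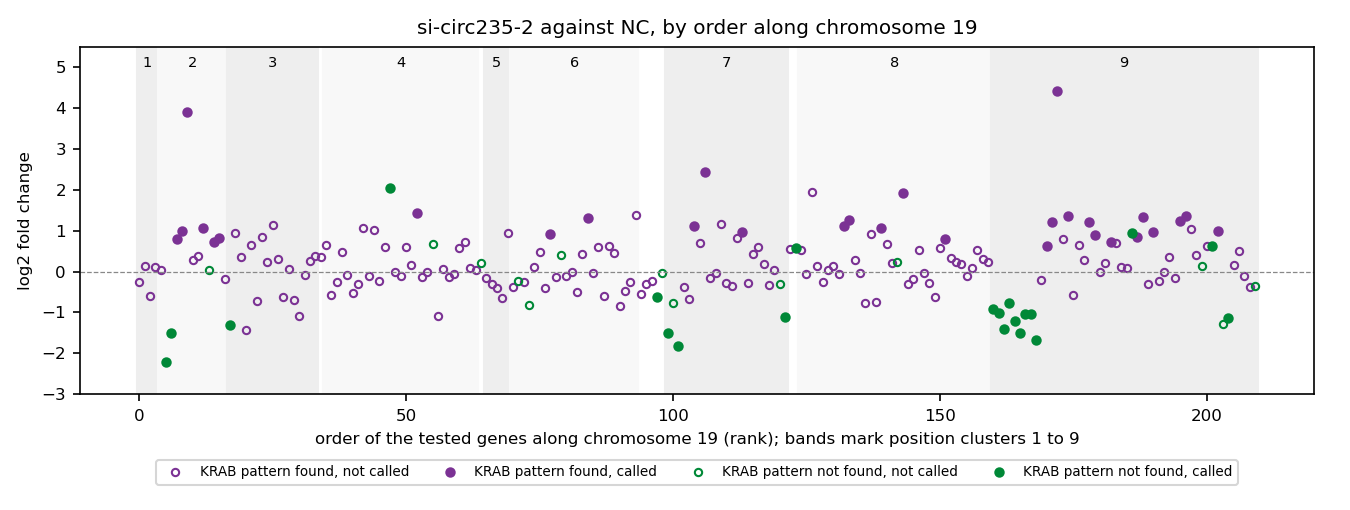
Log2 fold change of si-circ235-2 against NC for the 210 genes tested in their order along chromosome 19, filled where called, with bands for the 9 position clusters. The run of 9 filled points below 0 at the start of cluster 9 consists of genes without the KRAB pattern, and filled points above 0 are mostly genes with it.

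Under si-circ235-1 the genes moved little. Against NC, 3 genes rose (ZNF114, ZNF460 and ZNF616), where 2.24% of all genes tested were called higher, and 5 fell (ZNF324, ZNF580, ZNF665, ZNF865 and ZNF880), where 3.64% were called lower. The median log2 fold change was 0.04 over the 210 genes and -0.03 over all genes tested. Most or all of these calls were lost in edgeR when any 1 library of NC or si-circ235-1 was left out, as were most calls over all genes. In these fits the lone library was assumed to vary like the other conditions. The median over the 210 genes was then 0.00 and 0.11 without NC replicate 1 and 2. It was 0.04 and -0.08 without si-circ235-1 replicate 1 and 2.

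ZNF880 measured 9.64 and 7.33 CPM in NC, 3.57 and 3.07 CPM under si-circ235-1, and 4.66 and 5.45 CPM under si-circ235-2, all siRNA libraries below both NC libraries (log2 fold change of si-circ235-1 against NC -1.36, SE 0.29, adjusted p = 0.0271). ZNF665 fell under si-circ235-1, from 5.25 and 4.71 CPM to 2.45 and 1.67 CPM (log2 fold change -1.28, SE 0.32, adjusted p = 0.0433), and stood at 6.25 and 6.36 CPM under si-circ235-2. The 2 siRNAs thus differed for this gene, by a log2 fold change of 1.62 (SE 0.32, adjusted p = 0.00283). ZNF324, with a log2 fold change of -1.32 (SE 0.29, adjusted p = 0.0298), shares 40.9% of its transcript, in part with ZNF446, which it overlaps. ZNF114 rose from 11.0 and 11.6 CPM to 19.2 and 23.0 CPM (log2 fold change 0.90, SE 0.23, adjusted p = 0.0472), a call lost without TMM factors.

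The comparisons of the 2 siRNAs with NC share the NC libraries. The 4 genes called in both moved the same way in each, although leaving out TMM factors ended the call of ZNF616 for si-circ235-1 and that of ZNF865 for si-circ235-2, and removing length and GC trends ended the latter as well. ZNF616 (ENSG00000204611.6, chr19:52113091-52139922, minus strand, 21 fingers found) measured 4.13 and 4.34 CPM in NC, 10.4 and 8.09 CPM under si-circ235-1, and 8.97 and 11.3 CPM under si-circ235-2. The siRNA conditions overlapped and both lay above NC, with log2 fold changes of 1.12 (SE 0.27, adjusted p = 0.0412) and 1.26 (SE 0.27, adjusted p = 0.00717).

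ZNF460 (chr19:57280051-57293569, plus strand) had 2 and 1 counts in the NC libraries, 13 and 27 under si-circ235-1 and 30 and 54 under si-circ235-2. The ratio of its level to NC was 13.1 for si-circ235-1 (95% exact interval 4.17 to 66.1) and 23.4 for si-circ235-2 (95% exact interval 7.73 to 116), and these intervals cover counting error only. It was called against NC for both siRNAs (adjusted p = 0.0244 and 0.00269). ZNF865 (ENSG00000261221.3, chr19:55605405-55617269, plus strand, 71.1% GC) measured 91.8 and 69.1 CPM in NC, 46.2 and 34.9 CPM under si-circ235-1, and 56.1 and 37.9 CPM under si-circ235-2, with log2 fold changes of -0.99 (SE 0.25, adjusted p = 0.0436) and -0.78 (SE 0.24, adjusted p = 0.0337). The fourth gene was ZNF580, described above.

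Promoters of the genes called in both comparisons and of ZNF699 are printed here, since these genes moved most or moved under both siRNAs. RefSeq (GRCh38.p14) gave a promoter of 300 bases around a start of the gene for 215 of the 246 genes. These starts can differ from the gene coordinates given above. The ZNF580 window lies inside the gene as placed there, and so does nearly all of the ZNF865 window. Capitals mark matches on either strand to CCGGAAG (the core that ETS factors bind), GGGCGG (SP factors), GCGCATGCG (NRF1), AAGATGGC (YY1), CCAAT and TATAAA, and where 2 matches overlap the capitals run together.
ZNF699, chr19:9309789-9310088, minus strand: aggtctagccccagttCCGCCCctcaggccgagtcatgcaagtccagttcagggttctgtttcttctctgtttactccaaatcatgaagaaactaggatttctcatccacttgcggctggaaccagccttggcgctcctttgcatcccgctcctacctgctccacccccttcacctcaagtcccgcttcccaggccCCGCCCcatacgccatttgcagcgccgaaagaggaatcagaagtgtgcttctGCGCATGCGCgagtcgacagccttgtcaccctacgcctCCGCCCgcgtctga
ZNF616, chr19:52139889-52140188, minus strand: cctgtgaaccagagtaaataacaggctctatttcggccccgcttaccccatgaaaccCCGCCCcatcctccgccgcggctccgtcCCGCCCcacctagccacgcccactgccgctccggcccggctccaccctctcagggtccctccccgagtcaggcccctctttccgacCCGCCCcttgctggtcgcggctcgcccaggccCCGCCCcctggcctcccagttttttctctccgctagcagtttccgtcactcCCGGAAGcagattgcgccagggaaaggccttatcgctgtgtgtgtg
ZNF460, chr19:57279732-57280031, plus strand: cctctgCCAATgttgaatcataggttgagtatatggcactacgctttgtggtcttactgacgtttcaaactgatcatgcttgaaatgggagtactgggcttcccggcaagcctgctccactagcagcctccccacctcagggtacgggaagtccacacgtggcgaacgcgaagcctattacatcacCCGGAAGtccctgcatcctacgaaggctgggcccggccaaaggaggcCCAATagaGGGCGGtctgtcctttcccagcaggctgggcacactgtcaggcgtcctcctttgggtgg
ZNF580, chr19:55640752-55641051, plus strand: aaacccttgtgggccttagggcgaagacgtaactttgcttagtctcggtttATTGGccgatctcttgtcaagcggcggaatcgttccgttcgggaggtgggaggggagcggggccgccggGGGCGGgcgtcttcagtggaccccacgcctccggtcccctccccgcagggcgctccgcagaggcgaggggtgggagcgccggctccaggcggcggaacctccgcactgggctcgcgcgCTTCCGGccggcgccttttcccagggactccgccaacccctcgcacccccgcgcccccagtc
ZNF865, chr19:55605397-55605696, plus strand: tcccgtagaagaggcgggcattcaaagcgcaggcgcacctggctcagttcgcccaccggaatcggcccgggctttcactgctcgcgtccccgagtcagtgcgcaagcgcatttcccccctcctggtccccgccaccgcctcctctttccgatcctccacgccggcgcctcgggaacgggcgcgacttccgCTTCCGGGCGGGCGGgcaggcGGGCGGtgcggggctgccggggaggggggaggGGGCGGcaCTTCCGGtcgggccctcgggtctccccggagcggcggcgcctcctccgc
The ZNF616 promoter held 1 match to the ETS core and 4 to GGGCGG, ZNF460 1 and 1, ZNF580 1 and 1, and ZNF865 2 and 4. ZNF699 held 3 matches to GGGCGG and, on both strands at 1 place, GCGCATGCG. CCGGAAG was found in 45.6% of the 215 promoters, against 10.3% of all 35116 promoters and 19.2% of the promoters of 9897 other genes tested. CCAAT was found in 53.5%, against 34.6% and 36.1%, GGGCGG in 67.9%, against 44.95% and 71.4%, and TATAAA in 1.86%, against 11.5% and 5.24%. The ETS core was in 49.2% of 179 promoters of genes with the KRAB pattern and in 27.8% of 36 without it, in 53.3% of 30 promoters of genes that rose under si-circ235-2 and in 31.25% of 16 of genes that fell. The presence of these letters is a description of the window and not of binding.

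The 2 siRNAs were also compared with each other, a comparison that shares the si-circ235-2 libraries with the one above. Of the 210 genes, 31 were higher under si-circ235-2, where 21.1% of all genes tested were, and 16 were lower, where 18.6% were. The median log2 fold change was 0.05, with 0.04 over all genes. With the KRAB pattern, 31 were higher and 4 lower, and without it 0 were higher (0 by DESeq2, and 1 at an unadjusted p under 0.05 by edgeR) and 12 lower. Without si-circ235-1 replicate 2 the counts over the 210 genes were 17 higher and 6 lower, where 10.3% and 8.78% of all genes tested were called. Without si-circ235-2 replicate 2 the genes with the pattern gave 22 higher and 16 lower, where 16.3% and 15.4% of all genes tested were called. Without TMM factors they gave 58 and 1, and the genes without the pattern 4 and 6, where 31.5% and 10.4% of all genes tested were called.

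ZNF749 was higher under si-circ235-2 than under si-circ235-1, at 3.61 and 2.93 CPM in NC, 1.61 and 1.90 CPM under si-circ235-1 and 7.26 and 7.89 CPM under si-circ235-2 (log2 fold change of si-circ235-2 against si-circ235-1 2.10, SE 0.31, adjusted p = 0.000974). NC lay between the siRNAs. ZNF540 showed the opposite order, with 1.25 and 1.47 CPM in NC, 3.29 and 3.41 CPM under si-circ235-1 and 0.649 and 0.860 CPM under si-circ235-2 (log2 fold change -2.13, SE 0.41, adjusted p = 0.00279), and it passed the threshold in neither comparison with NC. In the same comparison ZNF626 had a log2 fold change of -1.30 (adjusted p = 0.0143), and ZNF610 and ZNF737 had 1.74 and 1.91 (adjusted p = 0.00474 and 0.0399).

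With the 4 siRNA libraries as 1 group against NC, edgeR called 0 of the 210 genes, and 0% of all genes tested. At an unadjusted p under 0.05 there were 21 of the 210 genes, against 9.57% of all genes tested. DESeq2 called 4 of the 210 genes in this comparison, ZNF460, ZNF616, ZNF714 and ZNF850, all higher, where it called 1.11% of all genes tested.

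The RNA levels of genes for the proteins through which KRAB zinc finger proteins act were followed from a list of 31 genes, all tested. Against NC, 1 was called under si-circ235-1 (3.23% of the list lower, against 3.64% of all genes tested), the HUSH partner MORC2, which fell from 20.3 and 28.2 CPM to 12.1 and 6.92 CPM (log2 fold change -1.36, SE 0.29, adjusted p = 0.0267) and stood at 44.3 and 39.7 CPM under si-circ235-2. Under si-circ235-2, 4 rose (CBX5, CHD4, GATAD2A and DNMT3B) and 5 fell (TRIM28, SUV39H1, CBX3, MBD3 and SUMO2). These shares of the list, 12.9% and 16.1%, were near the 15.7% called in each direction over all genes tested.

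TRIM28, the scaffold itself and a gene of chromosome 19, measured 946 and 766 CPM in NC, 846 and 731 CPM under si-circ235-1 and 564 and 460 CPM under si-circ235-2 (log2 fold change of si-circ235-2 against NC -0.74, SE 0.22, adjusted p = 0.0266). The HP1 gene CBX3 fell most, from 203 and 187 CPM in NC to 49.3 and 71.4 CPM under si-circ235-2, with 245 and 301 CPM under si-circ235-1 (log2 fold change -1.69, SE 0.22, adjusted p = 0.00179). The H3K9 methyltransferase SETDB1 had a log2 fold change of 0.88 (SE 0.32, adjusted p = 0.0562) and was not called. DNMT3B, a DNA methyltransferase, rose from 5.18 and 7.88 CPM to 15.6 and 17.2 CPM (log2 fold change 1.33, SE 0.27, adjusted p = 0.00553). Of the NuRD genes, the catalytic CHD4 rose by a log2 fold change of 0.85 (SE 0.17, adjusted p = 0.00560) and MBD3 fell by 1.29 on the log2 scale (SE 0.23, adjusted p = 0.00387). The second HP1 gene called, CBX5 (log2 fold change 0.58), changed sign after length and GC trends were removed, to -0.05.

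The study asks about the microRNA miR-330-5p, whose own gene MIR330 also lies on chromosome 19. Its mature sequence from RefSeq, at chr19:45639049-45639070 on the minus strand of GRCh38.p14, is shown with its seed (bases 2 to 8) in capitals:
hsa-miR-330-5p: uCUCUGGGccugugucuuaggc
The complement of the seed, CCCAGAG, was found anywhere in the longest transcript of 90 of the 210 genes (42.9%) and of 42.8% of all genes tested. The median log2 fold change of si-circ235-2 against NC was -0.03 for the 90 genes with it and 0.18 for the 120 without, and -0.01 and 0.06 for si-circ235-1. Over all genes tested the medians were 0.13 with and -0.10 without for si-circ235-2. For si-circ235-1 they stood in the other order, at -0.085 with and 0.0003 without. Of all genes tested, those with the match were longer, with a median of 4235 against 2737 bases. The part of the microRNA in these values was not tested.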

How the data were processed

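The authors sequenced poly(A)-enriched RNA of T24 cells from 3 transfections (NC and 1 for each siRNA), in 2 libraries each and without strand information. The authors deposited raw counts per gene, as whole numbers without normalization. The submitters' processing notes name FastQC, cutadapt, STAR and hg38, while the counting program and annotation were not stated there. Conditions came from the sample labels, and each of the 6 count columns was matched to its library by name. The genes, the lists and the grouping by KRAB pattern were chosen with earlier results of these data known.

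The quasi-likelihood test of edgeR 4.0.16 (R 4.3.3) was applied to the counts with TMM factors and 1 mean per condition, after filterByExpr left 14415 genes, and p-values were adjusted by Benjamini-Hochberg. Of 58288 identifiers, 99.5% matched GENCODE release 29. Replicates differed by more than counting error (chi-square per degree of freedom 23.4 to 34.9). Intervals cover counting error only, and p-values measure only the spread between these libraries. KRAB boxes and fingers were sought in translated GENCODE coding sequences, since RefSeq proteins were not used here. Genes named were, with a mean of at least 1 CPM, the 8 largest called rises and falls per comparison, those called in both comparisons with NC, the 5 highest per length in NC, and called genes of the KRAB machinery list. One other gene is not reported here. Other genes of the set were named after their values were seen. Length and GC content were those of the longest transcript, and their trends were removed with splines of 5 degrees of freedom. The fits were also run on simulated data, in which far fewer genes changed than were called under si-circ235-2. Their accuracy at changes as wide as those was therefore not tested. The alternatives comprised DESeq2 1.42.0, leaving out TMM factors or the filter, 2 conditions at a time, the replicate number as a block, the trends removed, each library left out, and genes under 20% shared.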

Additional observations from a re-analysis of the deposited data

How the results depend on the processing

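For the 210 chromosome 19 zinc finger genes tested, counts and medians that moved are given by setting. Against NC, si-circ235-1 gave 3 genes higher and 5 lower, and 5 higher with DESeq2, 1 higher without TMM factors, 8 higher and 10 lower both with no filter and with 2 conditions at a time, 7 higher without the length trend, 6 higher and 8 lower without length and GC trends, and 3 lower among genes under 20% shared. Over all genes tested, 323 were higher and 524 lower in the main fit. DESeq2 gave 714 and 805 there, and leaving out TMM factors gave 179 and 529. Comparing 2 conditions at a time gave 755 and 953. Removing the length trend gave 759 and 621, and removing both trends 1189 and 779. For si-circ235-2 against NC, the median of 0.10 became 0.36 without TMM factors (where the median of all genes was 0.25), -0.024 without the length trend and -0.084 without both trends. With both trends removed, 16 genes were higher, 15 with the KRAB pattern higher and 7 lower, and 1 without it higher and 8 lower. With the length trend removed, 3 genes with the pattern were lower and 2 without it higher, with no filter 1 with it was lower, and among genes under 20% shared 2 without it were higher. Between the siRNAs, 62 higher and 7 lower were found without TMM factors, the median then being 0.39 (0.37 over all genes), 19 were higher among genes under 20% shared, and the median was -0.18 and -0.10 after 1 and both trends were removed. For both siRNAs as 1 group DESeq2 called 4.

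With each library left out in turn, si-circ235-1 against NC gave 0 to 5 higher and 0 to 9 lower (median -0.081 to 0.11), si-circ235-2 against NC 3 to 33 higher and 4 to 22 lower (median -0.023 to 0.27), and the siRNAs against each other 17 to 33 higher and 6 to 25 lower (median -0.021 to 0.21). Under si-circ235-2 the genes with the KRAB pattern gave 3 to 30 higher and 0 to 9 lower, those without it 0 to 3 higher and 4 to 16 lower, and both siRNAs as 1 group 0.

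Deviations of same-numbered libraries correlated weakly, at -0.09, 0.15 and 0.14. The change in level with GC content, given above, was higher in replicate 1 than in replicate 2 of each condition. Whether the replicate numbers pair the libraries is thus not settled. With the replicate block si-circ235-2 against NC gave 33 higher and 17 lower, ZNF805 not among them, and the calls of ZNF616 and ZNF114 under si-circ235-1 were lost. With the block and both trends removed it gave 14 higher and 9 lower (median -0.079), 13 with the KRAB pattern higher and 3 lower, and 1 without it higher and 6 lower, and the siRNAs differed by a median of -0.10.

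These log2 fold changes of named genes changed sign once length and GC trends were removed: ZNF787 to 0.0021 for si-circ235-2 against NC and 0.015 between the siRNAs (0.017 with the block), and CBX5 to -0.049 (-0.060 with the block) for si-circ235-2 against NC. The cause of these differences was not tested. Of 71 calls of named genes, 70 held with DESeq2, 58 without TMM factors, 52 without both trends and 39 without NC replicate 1. With 2 libraries per condition, the calls rest on few values, and genes at under 1 CPM were limited by depth.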
